A study of Arabidopsis thaliana with 6 samples.

Results

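The Calvin cycle and photorespiration genes analysed here are 35 nuclear genes of Arabidopsis thaliana, chosen by locus as the genes for the Rubisco small subunits, Rubisco activase, the enzymes and CP12 regulators of the Calvin cycle, carbonic anhydrase and the enzymes of photorespiration. All 35 were among the 38189 genes of the deposited count tables, and all 35 were among the 17905 genes with enough reads to be tested. Their levels were compared between the hb34 mutant and the wild type of the Columbia accession, with 3 RNA-seq libraries of each genotype. HB34 belongs to the zinc finger homeodomain family of transcription factors. The study's title places it between jasmonate synthesis, immunity and growth. Both genotypes were seedlings grown for 10 days at 22 °C on Murashige and Skoog medium under 16 h of light and 8 h of dark, and both carry a mock treatment label. The labels call the tissue leaves, while the extraction protocol names whole seedlings. The sources used here do not give the kind of hb34 allele or the number of independent lines behind it. Nothing says whether the 3 libraries of a genotype came from separate cultures. The p-values then measure only how far these libraries differ, and that may be technical.

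In the Calvin cycle, Rubisco joins carbon dioxide to ribulose bisphosphate, the product is reduced to triose phosphate by phosphoglycerate kinase and glyceraldehyde phosphate dehydrogenase, and the remaining enzymes rebuild the acceptor. Rubisco also takes up oxygen, and the phosphoglycolate formed this way is salvaged by photorespiration, a route through chloroplast, peroxisome and mitochondrion that returns glycerate to the cycle and releases carbon dioxide and ammonium. The large subunit of Rubisco is encoded in the plastid and was not analysed here, while the small subunit and all other members are encoded in the nucleus.

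Of these 35 genes, 4 passed the test between the genotypes. The glutamate:glyoxylate aminotransferase gene GGT1 rose in hb34 to 145.0% of its wild-type mean. The glyceraldehyde phosphate dehydrogenase gene GAPA2 fell to 66.8%, the glycine cleavage gene GLDT to 74.1% and the ribose phosphate isomerase gene EMB3119 to 66.7% of the wild-type mean. The other 31 members did not pass the test, with adjusted p from 0.0733 to 0.888. Among them were the main small subunit gene RBCS1A, Rubisco activase and the genes for phosphoribulokinase and sedoheptulose bisphosphatase. The 4 calls were not stable. None of the 4 genes passed without wild-type replicate 1, without wild-type replicate 2 or with the replicate number as a block in the fit. GGT1 and EMB3119 also missed the threshold once a trend with gene length, described below, was removed (adjusted p = 0.0501 and 0.135, edgeR).

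The libraries held between 17562497 and 19670468 counts, and a member had from 4371 to 522604 counts in a library, so counting error was small beside the spread between libraries. Values below are counts per 1e6 (CPM) on library sizes scaled by the trimmed mean of M values (TMM), and log2 fold changes are hb34 minus wild type. Their standard error (SE) was derived from the fold change and the F statistic of the edgeR quasi-likelihood test, with 3 libraries a genotype. That statistic moderates the spread of a gene with that of the other tested genes. HB34 itself had 83.3, 91.7 and 93.1 CPM in the wild type against 1.02, 2.27 and 1.18 CPM in the mutant, a log2 fold change of −5.90 (adjusted p = 0.000419, edgeR quasi-likelihood test). No root marker had enough reads to be tested. Of the 13 root markers, 8 had no count in any library and the highest count of any was 8. The summed level of the 5 epidermis and guard cell markers ran from 115 to 149 CPM in the wild type and from 115 to 145 CPM in hb34, and that of the 4 phloem markers from 367 to 478 CPM and from 391 to 488 CPM. Of the 8 such markers tested none passed with edgeR, DESeq2 or limma-voom. Before adjustment KAT1 and APL were higher (log2 fold changes 0.40 and 0.43) and FAMA and SWEET12 lower (−0.54 and −0.47) at p under 0.05. Of all tested genes, 16.5% were higher and 13.3% lower by that measure. Because these are bulk samples, fewer cells of a type and less RNA per cell cannot be told apart.

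The libraries differed in how the level of a gene moved with its length. Across the tested genes, which share each library and are not independent, Spearman's rho between exon length and the deviation from the gene's mean was −0.487, −0.479 and −0.015 in the wild-type libraries numbered 1 to 3. It was 0.414, 0.354 and 0.142 in the hb34 libraries of the same numbers. Over the 35 members it was −0.525, −0.507 and 0.016 in the wild type and 0.567, 0.567 and 0.001 in hb34. Replicates 1 and 2 of both genotypes stood apart from the replicates numbered 3, in opposite directions. The log2 fold change rose with exon length, with a rho of 0.458 over the 17905 tested genes and 0.513 over the members. These became −0.005 and 0.035 when the length trend of each library was removed before the test. The removal lowers rho by construction, so that fall is no check of it. Values with that trend removed, an alternative chosen after seeing the data, are given beside the results they change most.

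**Figure D1:**
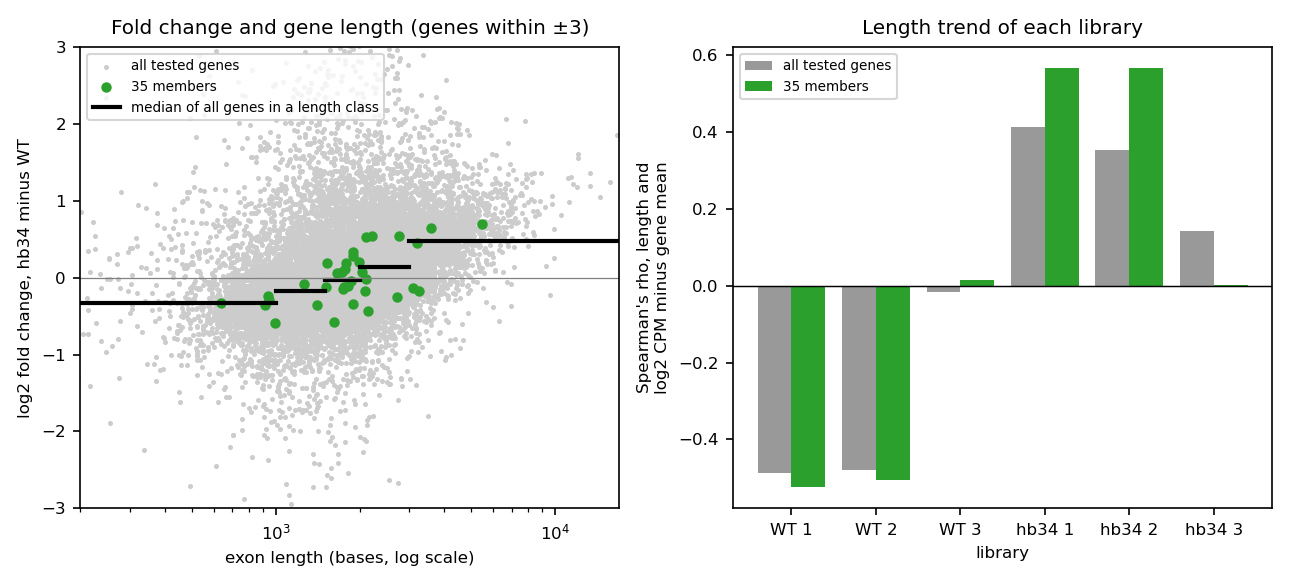
Left, log2 fold change (hb34 minus wild type) against exon length in bases on a log axis, for the tested genes within ±3 (grey), the 35 members (green) and the median of each length class (bars). Right, Spearman's rho between exon length and the level in each library relative to the gene's mean, over all tested genes (grey) and the members (green). The class medians climb from −0.33 up to 1000 bases to 0.48 above 3000 bases, and rho is −0.487 in wild-type replicate 1 and 0.414 in hb34 replicate 1.

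At a threshold of 0.05 on p adjusted over the 17905 genes (edgeR quasi-likelihood test, Benjamini-Hochberg), 1 of the 35 members was higher in hb34 and 3 were lower. Of all tested genes, 3.77% (675) were called higher and 2.50% (447) lower, 6.27% in all, and the members' count of 4 of 35, which rests on few genes, is read as nothing particular to the set. With upper quartile scaling the whole table split into 536 higher and 615 lower. Before adjustment, 5 members were higher and 6 lower at p under 0.05, against 16.5% and 13.3% of all tested genes and 29.7% in either direction. The 3 libraries of a genotype did not overlap for 7 members that were higher in hb34 (GGT1, HPR1, RCA, GOX1, CAT2, SHM1 and GLU1) and for 7 that were lower (GAPA2, GLDT, EMB3119, GLYK, GAPA, SBPASE and RBCS3B). That was the case for 17.8% and 17.5% of all genes, or 35.3% together. The median log2 fold change of the members was −0.08, beside 0.01 for all tested genes.

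The calls of members changed with the library left out. Without hb34 replicate 1, whose length trend was also strong, 1 member was called higher and 1 lower, beside 653 genes higher and 235 lower. Without wild-type replicate 1 no member was called, beside 1 gene higher and 2 lower among all genes, and without wild-type replicate 2 no member was called, beside 1 gene higher and 3 lower. With the length trend of each library removed, 0 members were higher and 3 were lower (GAPA2, GLDT and GLYK, the glycerate kinase gene), beside 1.83% higher, 1.25% lower and 3.08% in all of the tested genes. With a trend on GC content also removed, GGT1 was called higher and the same 3 genes lower, beside 1.98%, 1.32% and 3.30%. DESeq2 called 2 members higher (GGT1 and GLU1) and 3 lower, beside 9.00% higher, 5.51% lower and 14.5% in all of the genes it tested. Limma-voom called GGT1 higher and 2 members lower, beside 3.36%, 2.33% and 5.69%, with EMB3119 at an adjusted p of 0.0508.

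**Figure D2:**
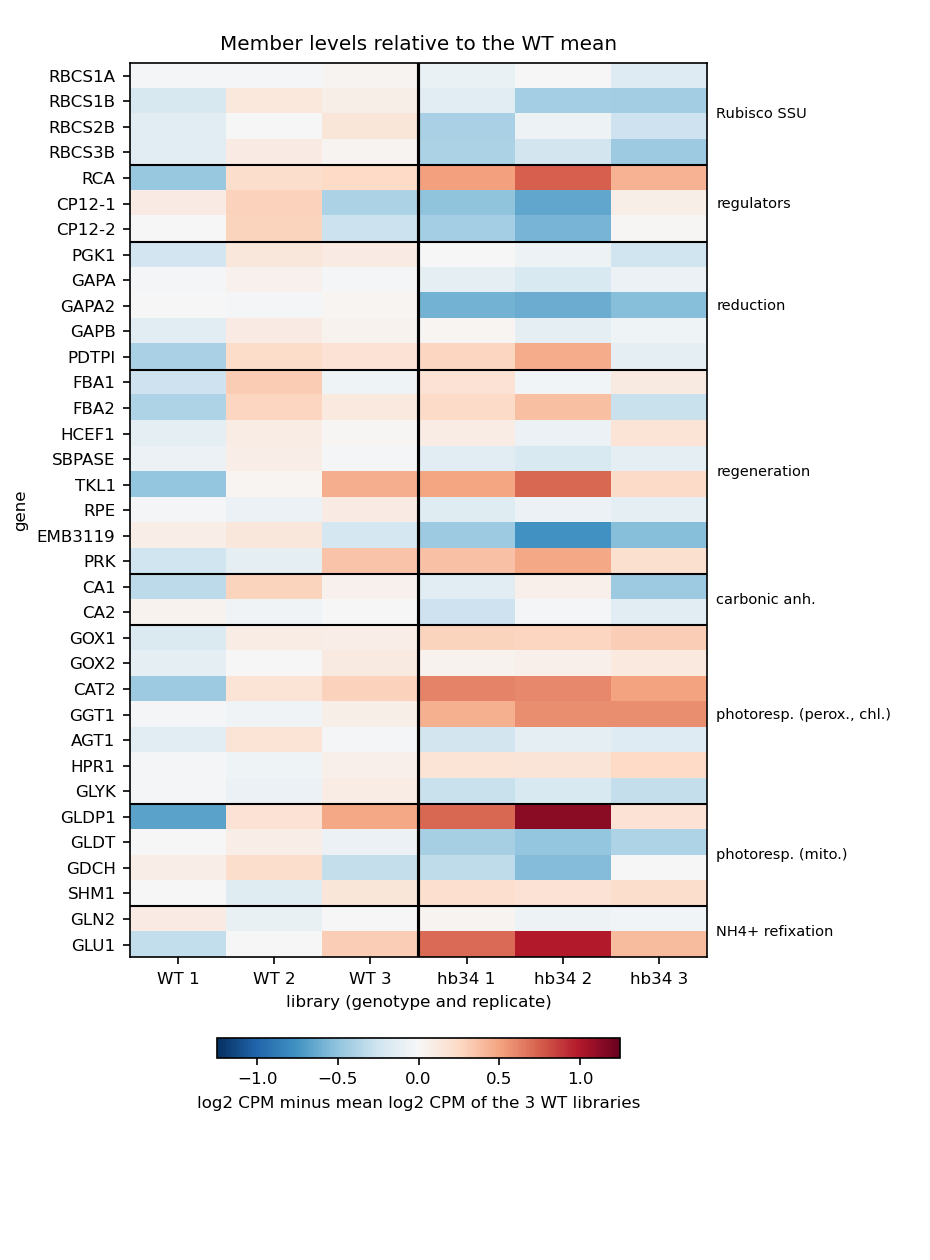
Heat map of the 35 members (rows, grouped by role) in the 3 wild-type and 3 hb34 libraries (columns). Colour gives log2 CPM minus the mean log2 CPM of the wild-type libraries. GAPA2 and GLDT are evenly low and GGT1 evenly high in the hb34 libraries, while GLDP1 and GLU1 vary among the libraries of both genotypes.

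The members together took 10.2, 11.1 and 11.5% of all counts in the wild type and 11.4, 11.2 and 10.8% in hb34, and these ranges overlapped. Per kilobase of exon in the wild type, the levels ran from 157.2 CPM for GLYK to 20525.9 CPM for RBCS1A, with RBCS3B (4911.4), RCA (3210.2) and GAPA (3158.2) following RBCS1A.

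The 4 nuclear small subunit genes encode the small subunit of Rubisco, and 3 of them are near-identical copies. RBCS1A (gene-AT1G67090) lies on chromosome 1 (25048158 to 25049667, minus strand), and RBCS3B (gene-AT5G38410), RBCS2B (gene-AT5G38420) and RBCS1B (gene-AT5G38430) lie side by side on chromosome 5 between 15376988 and 15385320, also on the minus strand. The first 90 coding bases of each are shown because they let the reader see how far reads can be told apart. They come from the RefSeq genome and annotation of TAIR10.1, run 5′ to 3′ from the start codon, and have capitals at the 19 positions where the 4 genes are not all alike.
RBCS1A: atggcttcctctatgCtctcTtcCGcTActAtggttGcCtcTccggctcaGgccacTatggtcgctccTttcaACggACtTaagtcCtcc
RBCS1B: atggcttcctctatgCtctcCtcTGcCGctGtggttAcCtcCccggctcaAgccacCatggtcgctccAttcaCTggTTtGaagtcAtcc
RBCS2B: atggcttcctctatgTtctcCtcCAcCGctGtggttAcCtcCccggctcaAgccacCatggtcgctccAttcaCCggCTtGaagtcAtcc
RBCS3B: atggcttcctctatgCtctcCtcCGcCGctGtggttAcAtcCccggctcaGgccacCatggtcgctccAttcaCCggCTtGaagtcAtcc

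Over the whole coding sequence the 3 genes on chromosome 5 were 96.7 to 97.3% identical to each other and 90.4 to 90.6% identical to RBCS1A. Of the 150-base windows of RBCS1B, 20.4% also occurred in RBCS3B. RBCS2B shared no such window with either of these, and RBCS1A shared none with the others. The sources used here do not say how the authors counted reads with several matches. The split among the 3 chromosome 5 genes is therefore uncertain, above all between RBCS1B and RBCS3B.

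No small subunit gene passed the test with TMM scaling. Before adjustment 0 were higher and 2 lower at p under 0.05, beside 16.5% and 13.3% of all tested genes. DESeq2 and limma-voom called 0. RBCS1A had 25752, 25625 and 26703 CPM in the wild type and 24602, 26013 and 23238 CPM in hb34, and the genotypes overlapped (log2 fold change −0.08, SE 0.092, adjusted p = 0.579, edgeR). RBCS3B had 6268, 7423 and 7085 CPM against 5247, 5872 and 5053 CPM in hb34. All 3 hb34 libraries lay below the wild type, with a log2 fold change of −0.36 (SE 0.109, adjusted p = 0.0844, edgeR). With upper quartile scaling RBCS3B was called lower (log2 fold change −0.46, adjusted p = 0.0478). It was at −0.23 with the length trend removed (adjusted p = 0.317), and hb34 replicate 2 (6348 CPM) then lay above wild-type replicate 1 (5829 CPM). RBCS1B had 2439, 3064 and 2947 CPM against 2543, 2084 and 2069 CPM, and RBCS2B had 2390, 2637 and 2934 CPM against 2001, 2533 and 2212 CPM. Both overlapped between the genotypes, with log2 fold changes of −0.34 and −0.24 (adjusted p = 0.140 and 0.242, edgeR). The length trend's removal left RBCS1B at −0.34 and turned the sign of RBCS2B (0.05) and of RBCS1A (0.10). Because their sequences are near-identical, the 3 chromosome 5 genes were also added up. Their sum was 11097, 13124 and 12966 CPM in the wild type and 9791, 10489 and 9333 CPM in hb34, lower in every hb34 library but not past the threshold (log2 fold change −0.33, SE 0.107, adjusted p = 0.0972, edgeR).

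Within the family, RBCS1A took 69.9, 66.1 and 67.3% of the small subunit counts in the wild type and 71.5, 71.3 and 71.3% in hb34. The share was higher in 3 of 3 hb34 libraries, by 3.60 percentage points. An exact two-sided permutation test over the libraries gave p = 0.1, the smallest that 3 against 3 libraries allow, and 0.2 after adjustment over the 6 families tested. RBCS1A has 1268 exon bases, beside 1894 in RBCS1B, 935 in RBCS2B and 1410 in RBCS3B. The part of the length trend in this share was not tested.

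Rubisco activase, encoded by RCA (gene-AT2G39730), frees Rubisco's active site of inhibitory sugar phosphates. RCA had 4732, 7673 and 7830 CPM in the wild type and 9394, 11038 and 8875 CPM in hb34. Every hb34 library lay above the wild type, but the wild-type libraries themselves differed 1.66-fold and the log2 fold change of 0.53 did not pass (SE 0.199, adjusted p = 0.127, edgeR). Without wild-type replicate 1 it was 0.34. CP12-1 (gene-AT2G47400) and CP12-2 (gene-AT3G62410) encode small proteins that in the dark hold glyceraldehyde phosphate dehydrogenase and phosphoribulokinase in an inactive complex. CP12-1 had 736, 838 and 522 CPM against 482, 435 and 720 CPM in hb34. CP12-2 had 508, 617 and 422 CPM against 379, 341 and 516 CPM. In both genes hb34 replicates 1 and 2 were low and hb34 replicate 3 lay within the wild-type range. Their log2 fold changes were −0.36 and −0.32 (adjusted p = 0.338 and 0.296, edgeR), and −0.05 and 0.06 with the length trend removed. Leaving out 1 library at a time moved them as far as −0.19 and −0.17 without wild-type replicate 2, −0.21 and −0.20 without hb34 replicate 2, and −0.60 and −0.52 without hb34 replicate 3. CP12-1 took 55.3 to 59.2% of the counts of the pair in the wild type and 56.0 to 58.3% in hb34 (exact permutation p = 0.7, adjusted 1.0). In this group of 3 genes, 1 was higher before adjustment, beside 16.5% of all tested genes, and neither DESeq2 nor limma-voom called any.

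In the reduction phase GAPA2 fell, and the other 4 genes did not pass the test. GAPA (gene-AT3G26650) and GAPA2 (gene-AT1G12900) encode the A subunit and GAPB (gene-AT1G42970) the B subunit of the chloroplast glyceraldehyde phosphate dehydrogenase, which reduces bisphosphoglycerate with NADPH. GAPA2 had 3710, 3706 and 3790 CPM in the wild type and 2472, 2429 and 2583 CPM in hb34. The libraries of each genotype lay close together and far from those of the other. GAPA2 fell by 0.58 on the log2 scale (SE 0.086, adjusted p = 0.0169, edgeR). The fall was 0.51 with the length trend removed (adjusted p = 0.0271) and 0.55 with GC content also removed (adjusted p = 0.0180). Over 21 alternative settings GAPA2 passed in 18. It did not pass without wild-type replicate 1 (adjusted p = 0.0790) or without wild-type replicate 2 (adjusted p = 0.0879), where the log2 fold change was −0.58 in both. With the replicate number as a block GAPA2 did not pass either (log2 fold change −0.58, adjusted p = 0.112, edgeR). GAPA had 5428, 5727 and 5445 CPM in the wild type and 5114, 4854 and 5267 CPM in hb34. These groups did not overlap either, but the log2 fold change was −0.12 (SE 0.089, adjusted p = 0.377, edgeR). GAPB had 3862, 4591 and 4404 CPM against 4362, 3966 and 4107 CPM, with overlapping groups.

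Counted as a share, GAPA took 59.4, 60.7 and 59.0% of the counts of the A subunit pair in the wild type and 67.4, 66.7 and 67.1% in hb34. The share was 7.36 percentage points higher in hb34, with no overlap (exact two-sided permutation p = 0.1, the smallest possible, adjusted p = 0.2). The coding sequences of GAPA and GAPA2 were 85.8% identical and shared no 150-base window, and the exon lengths were 1752 and 1617 bases. The other reduction phase genes were PGK1 (gene-AT3G12780), for the chloroplast phosphoglycerate kinase, and PDTPI (gene-AT2G21170), for the plastid triose phosphate isomerase. Both overlapped between genotypes, with log2 fold changes of −0.11 and 0.20 (adjusted p = 0.603 and 0.544, edgeR).

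**Figure D3:**
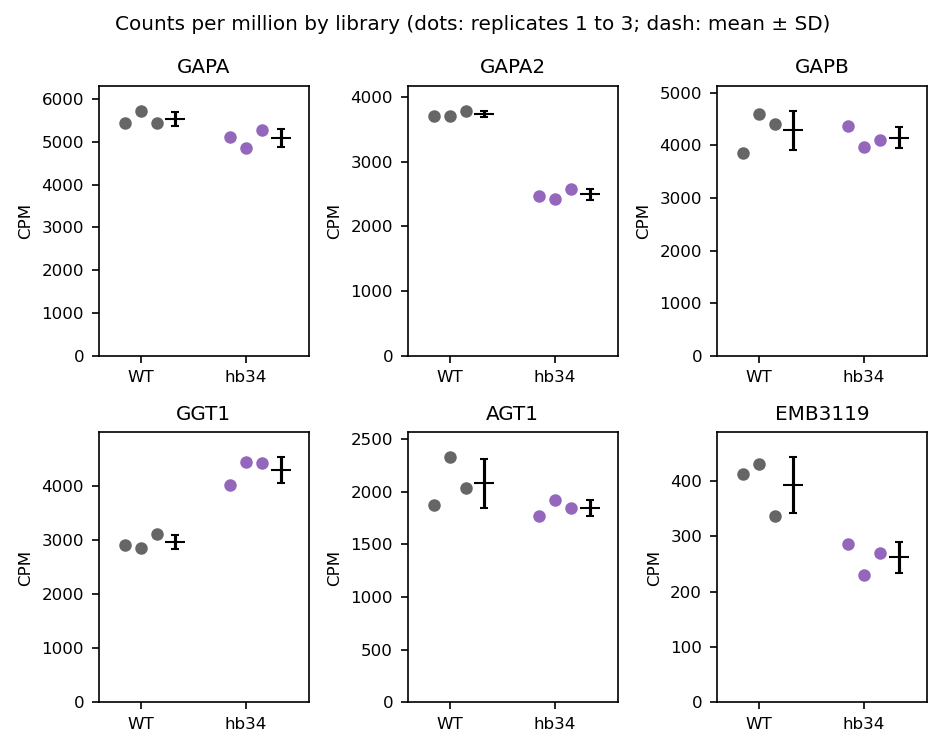
CPM of GAPA, GAPA2, GAPB, GGT1, AGT1 and EMB3119 in the 3 wild-type (grey) and 3 hb34 (purple) libraries, with the mean and SD beside the points and axes from 0. GAPA2 lies between 2429 and 2583 CPM in hb34 and between 3706 and 3790 CPM in the wild type, while GAPA, its partner for the same subunit, differs far less.

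The regeneration phase turns triose phosphate back into ribulose bisphosphate. Of its 8 genes, EMB3119 passed the test and 7 did not. EMB3119 (gene-AT3G04790), which encodes a chloroplast ribose phosphate isomerase, had 413, 431 and 336 CPM in the wild type and 286, 231 and 271 CPM in hb34. The groups did not overlap, with wild-type replicate 3 the lowest of its group. EMB3119 fell by 0.58 on the log2 scale (SE 0.135, adjusted p = 0.0482, edgeR). It is a short gene of 992 exon bases, and with the length trend removed the log2 fold change was −0.30 (adjusted p = 0.135). It passed in 9 of 21 alternative settings and, leaving out 1 library at a time, only without wild-type replicate 3. It did not pass when the genes at the start of chromosome 2 were left out of the fit. PRK (gene-AT1G32060), for phosphoribulokinase, which makes the carbon dioxide acceptor, had 1494, 1642 and 2261 CPM against 2279, 2469 and 2035 CPM in hb34. Wild-type replicate 3 lay within the hb34 range, and the log2 fold change of 0.33 did not pass (SE 0.167, adjusted p = 0.228, edgeR). It was 0.22 without wild-type replicate 1 and 0.54 without wild-type replicate 3 (adjusted p = 0.497 and 0.0638).

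The transketolase gene TKL1 (gene-AT3G60750), which moves carbon pairs between sugar phosphates, had a log2 fold change of 0.45 (adjusted p = 0.242, edgeR) and of 0.14 with the length trend removed. It was 0.24 without wild-type replicate 1 and 0.71 without wild-type replicate 3. FBA1 (gene-AT2G21330) and FBA2 (gene-AT4G38970) encode plastid fructose bisphosphate aldolases. FBA1 had 4147, 6168 and 4770 CPM in the wild type and 5609, 4856 and 5365 CPM in hb34. FBA2 had 3277, 5153 and 4660 CPM against 5065, 5555 and 3542 CPM. Neither pair of groups separated, and FBA1 took 50.6 to 55.9% of the pair's counts in the wild type and 46.6 to 60.2% in hb34 (exact permutation p = 1.0). The remaining genes did not pass either. SBPASE (gene-AT3G55800), for sedoheptulose bisphosphatase, lay slightly lower in every hb34 library (log2 fold change −0.15, adjusted p = 0.314, edgeR). RPE (gene-AT5G61410), for ribulose phosphate epimerase, and HCEF1 (gene-AT3G54050), for the chloroplast fructose bisphosphatase, had log2 fold changes of −0.12 and 0.06, and of −0.02 and 0.12 with the length trend removed, with overlapping groups.

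Carbonic anhydrases interconvert carbon dioxide and bicarbonate, and CA1 (gene-AT3G01500) and CA2 (gene-AT5G14740) encode abundant leaf forms. CA1 had 4038, 6110 and 5228 CPM in the wild type and 4613, 5285 and 3691 CPM in hb34. CA2 had 2971, 2798 and 2869 CPM against 2409, 2839 and 2604 CPM. Both overlapped, with log2 fold changes of −0.18 and −0.14 (adjusted p = 0.541 and 0.376, edgeR). Before adjustment 0 of the 2 passed, and DESeq2 and limma-voom called 0. Both are long genes, and with the length trend removed the log2 fold changes were −0.52 and −0.44 (adjusted p = 0.134 and 0.0874). CA1 took 57.6 to 68.6% of the pair's counts in the wild type and 58.6 to 65.7% in hb34 (exact permutation p = 1.0).

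**Figure D4:**
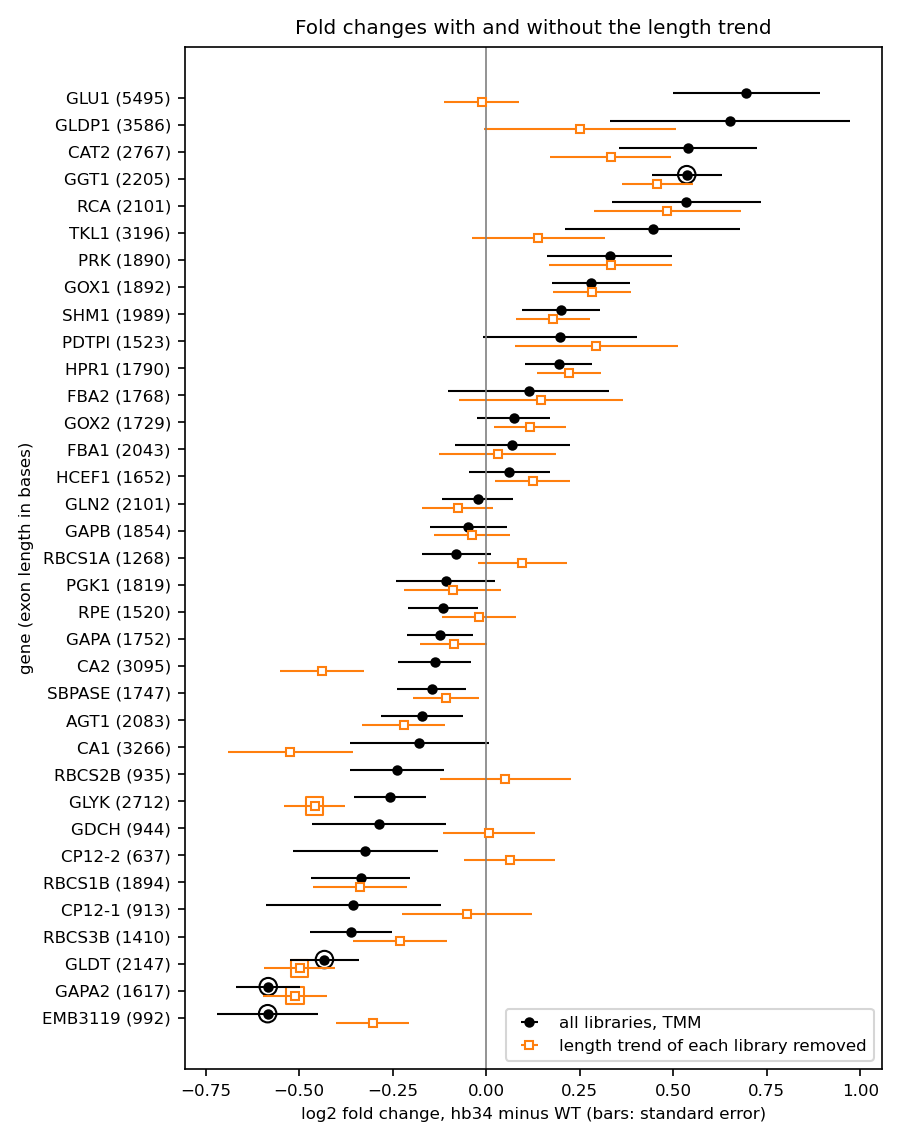
Log2 fold change (hb34 minus wild type) of the 35 members with standard errors, from all libraries (black circles) and with the length trend of each library removed (orange squares), with exon length in brackets. A ring or larger square marks an adjusted p under 0.05. GLU1 moves from 0.70 to −0.01, while GAPA2 stays at −0.58 and −0.51.

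Among the photorespiratory enzymes of peroxisome and chloroplast, GGT1 passed and 6 genes did not. GGT1 (gene-AT1G23310) makes glycine from glyoxylate in the peroxisome, with glutamate as the amino donor. It had 2900, 2856 and 3106 CPM in the wild type and 4004, 4431 and 4415 CPM in hb34. The lowest hb34 library lay well above the highest wild-type library. GGT1 rose by 0.54 on the log2 scale (SE 0.094, adjusted p = 0.0259, edgeR). With the length trend removed the log2 fold change was 0.46, just short of the threshold (adjusted p = 0.0501), and with GC content also removed it was 0.45 (adjusted p = 0.0419). Over 21 alternative settings GGT1 passed in 16. It did not pass without wild-type replicate 1 (adjusted p = 0.112), wild-type replicate 2 (0.123) or hb34 replicate 3 (0.0613), with log2 fold changes of 0.53, 0.52 and 0.52. With the replicate number as a block GGT1 did not pass either.

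AGT1 (gene-AT2G13360), whose serine:glyoxylate aminotransferase works beside that of GGT1 in the peroxisome, had overlapping groups and a log2 fold change of −0.17 (adjusted p = 0.322, edgeR). GOX1 (gene-AT3G14420) and GOX2 (gene-AT3G14415) encode glycolate oxidase, which forms glyoxylate and hydrogen peroxide. GOX1 had 1946, 2343 and 2330 CPM in the wild type and 2675, 2645 and 2721 CPM in hb34. GOX2 had 866, 931 and 1012 CPM against 961, 979 and 1016 CPM. GOX1 lay higher in every hb34 library and GOX2 overlapped, with log2 fold changes of 0.28 and 0.07 (adjusted p = 0.127 and 0.635, edgeR). The 2 genes are neighbours on chromosome 3 with coding sequences 92.4% identical and no shared 150-base window. GOX1 took 69.2, 71.6 and 69.7% of their counts in the wild type and 73.6, 73.0 and 72.8% in hb34 (exact permutation p = 0.1, the smallest possible, adjusted p = 0.2).

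CAT2 (gene-AT4G35090) encodes the main leaf catalase, which removes the peroxide made by glycolate oxidase. CAT2 had 2123, 3283 and 3564 CPM in the wild type and 4484, 4417 and 4135 CPM in hb34. Every hb34 library lay above the wild type, whose replicate 1 was far below its fellows (log2 fold change 0.54, SE 0.185, adjusted p = 0.109, edgeR). The log2 fold change was 0.33 with the length trend removed and 0.35 without wild-type replicate 1. HPR1 (gene-AT1G68010), for the peroxisomal hydroxypyruvate reductase, had 1099, 1074 and 1163 CPM against 1248, 1245 and 1323 CPM in hb34 (log2 fold change 0.19, adjusted p = 0.192, edgeR). GLYK (gene-AT1G80380), for the chloroplast glycerate kinase that returns carbon to the Calvin cycle, had 421, 404 and 454 CPM against 351, 373 and 347 CPM. HPR1 lay higher and GLYK lower in every hb34 library, and the log2 fold change of GLYK was −0.26 (SE 0.096, adjusted p = 0.128, edgeR). GLYK is a long gene of 2712 exon bases, and with the length trend removed its log2 fold change was −0.46 and passed (adjusted p = 0.0317).

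The 250 bases upstream of GGT1 and GAPA2 are shown because these members passed in the most settings and moved in opposite directions. They are from the RefSeq genome of TAIR10.1 and run 5′ to 3′ on the minus strand, on which both genes lie. GGT1's stretch is chr1:8272022-8272271 and that of GAPA2 is chr1:4394455-4394704. Capitals mark the G-box, the letters CACGTG, which is its own reverse complement.
GGT1: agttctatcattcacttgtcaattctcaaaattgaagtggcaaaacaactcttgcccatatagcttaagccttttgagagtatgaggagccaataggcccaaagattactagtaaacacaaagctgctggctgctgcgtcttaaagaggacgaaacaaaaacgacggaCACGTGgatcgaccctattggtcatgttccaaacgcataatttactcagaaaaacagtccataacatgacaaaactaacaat
GAPA2: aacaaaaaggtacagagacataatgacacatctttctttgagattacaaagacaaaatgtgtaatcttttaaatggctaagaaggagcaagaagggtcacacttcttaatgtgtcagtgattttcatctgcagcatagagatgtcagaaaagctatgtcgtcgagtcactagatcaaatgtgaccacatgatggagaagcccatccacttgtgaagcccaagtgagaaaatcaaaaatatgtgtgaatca

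The G-box letters occurred in this window in 5 of 35 members (14.3%) and in 7.4% of the 17883 windows of tested genes. The I-box letters GATAAG, on either strand, occurred in 4 of 35 members (11.4%) and in 12.4% of windows. The letters ATTA, the core that plant homeodomain proteins are known to bind, occurred on either strand in 35 of 35 members and in 97.9% of windows. The 3 letter runs cannot lie within each other. A match is a description of the letters and not of binding.

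In the mitochondrion, glycine decarboxylase and serine hydroxymethyltransferase turn glycine into serine, and glycine decarboxylase is built of P, T, H and L proteins. Of the 4 members, GLDT passed the test. GLDT (gene-AT1G11860), the single gene for the T protein in these lists, had 1335, 1417 and 1269 CPM in the wild type and 1003, 955 and 1022 CPM in hb34. The groups did not overlap and the hb34 libraries were close to each other. GLDT fell by 0.43 on the log2 scale (SE 0.093, adjusted p = 0.0406, edgeR) and by 0.50 with the length trend removed (adjusted p = 0.0389). It passed in 12 of 21 alternative settings. Those it missed included the fit without the genes at the start of chromosome 2. Leaving out any 1 of the 6 libraries took its adjusted p to between 0.0570 and 0.164, with log2 fold changes from −0.46 to −0.38.

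GLDP1 (gene-AT4G33010), for a P protein, had 894, 1608 and 1980 CPM in the wild type and 2334, 3100 and 1606 CPM in hb34. Its wild-type libraries differed 2.21-fold and the groups overlapped (log2 fold change 0.65, SE 0.322, adjusted p = 0.218, edgeR). It was 0.39 without wild-type replicate 1 and 0.40 without hb34 replicate 2. GDCH (gene-AT2G35370), for an H protein, had 665, 727 and 508 CPM against 502, 431 and 625 CPM, with overlapping groups (log2 fold change −0.29, adjusted p = 0.317, edgeR). It was −0.17 without wild-type replicate 2 or hb34 replicate 2, and −0.44 without hb34 replicate 3. With the length trend removed, the log2 fold changes were 0.25 for GLDP1, with 3586 exon bases, and 0.01 for GDCH, with 944. SHM1 (gene-AT4G37930), for the mitochondrial serine hydroxymethyltransferase, had 2393, 2168 and 2668 CPM against 2782, 2729 and 2793 CPM. It lay slightly higher in every hb34 library and did not pass (log2 fold change 0.20, adjusted p = 0.239, edgeR).

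Further genes of glycine decarboxylase lay outside the 35 members. GDCH2, for a little-expressed H protein, had 12.5, 13.0 and 12.0 CPM in the wild type and 8.05, 6.81 and 7.66 CPM in hb34. GDCH3, for a further H protein, had 656, 657 and 509 CPM against 380, 343 and 441 CPM. Both fell, with log2 fold changes of −0.73 and −0.65 (adjusted p = 0.0336 and 0.0449, edgeR). With the length trend removed they were −0.42 and −0.31 and did not pass (adjusted p = 0.143 and 0.0983). The next genes were chosen after their values were seen. GLDP2, the other P protein gene, had a log2 fold change of 0.69 (adjusted p = 0.159, edgeR), and of 0.19 with the length trend removed. MTLPD1, for an L protein, had 339, 366 and 389 CPM against 287, 270 and 282 CPM. Its log2 fold change of −0.38 did not pass (adjusted p = 0.0591, edgeR), while that of −0.51 with the length trend removed did (adjusted p = 0.0257). MTLPD2, the other L protein gene, had a log2 fold change of 0.08 (adjusted p = 0.706, edgeR).

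**Figure D5:**
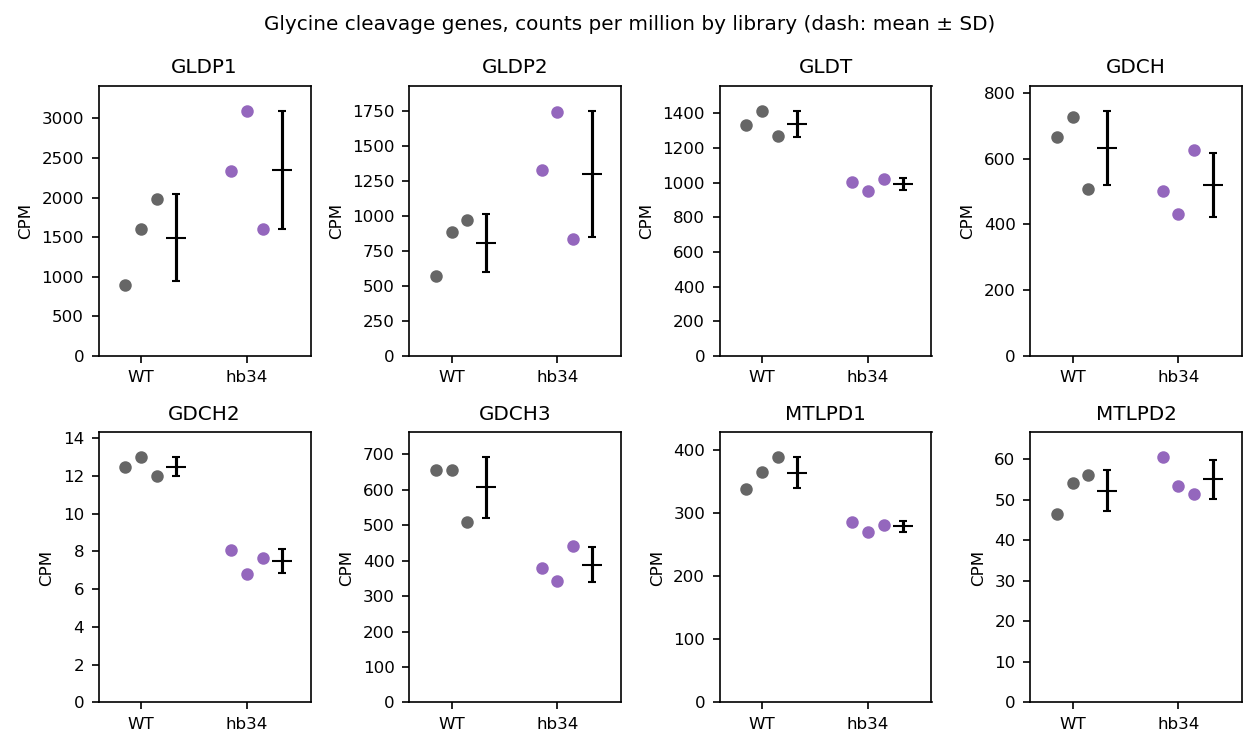
CPM of the 8 glycine decarboxylase genes in the 3 wild-type (grey) and 3 hb34 (purple) libraries, with mean and SD beside the points and axes from 0. GLDT, GDCH2, GDCH3 and MTLPD1 are lower in every hb34 library, while GLDP1 ranges from 894 to 1980 CPM in the wild type and from 1606 to 3100 CPM in hb34.

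The ammonium released by glycine decarboxylase is refixed in the chloroplast by glutamine synthetase, encoded by GLN2 (gene-AT5G35630), and ferredoxin-dependent glutamate synthase, encoded by GLU1 (gene-AT5G04140). GLU1 had 717, 885 and 1097 CPM in the wild type and 1447, 1756 and 1167 CPM in hb34. The groups did not overlap, although wild-type replicate 3 and hb34 replicate 3 lay close. The log2 fold change of 0.70 was the largest in size among the members and did not pass (SE 0.197, adjusted p = 0.0733, edgeR). GLU1 is also the longest member, with 5495 exon bases, and with the length trend removed its log2 fold change was −0.01 (adjusted p = 0.954). GLN2 had 3072.3, 2684 and 2870 CPM against 2936, 2748 and 2806 CPM (log2 fold change −0.02, adjusted p = 0.888, edgeR), with overlapping groups. Neither gene was called by edgeR or limma-voom. Before adjustment 1 was higher, beside 16.5% of all tested genes. DESeq2 called GLU1 higher, beside 9.00% of the genes it tested.

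Read by length, 7 members have at most 1500 exon bases and none of these had a positive log2 fold change. Up to 1000 bases the median was −0.32 for 5 members and −0.33 for all tested genes. Above 3000 bases it was 0.45 for 5 members and 0.48 for all tested genes. Of all tested genes up to 1000 bases, 0.993% were called higher and 6.14% lower, and above 3000 bases 12.6% were called higher and 0.126% lower. GAPA2, GLDT and GGT1 have 1617, 2147 and 2205 exon bases, lengths at which the class medians of all genes were −0.03 and 0.14.

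Genes around the 2 pathways were read from lists of 98 further genes. Of all tested genes, edgeR called 3.77% higher and 2.50% lower, and the counts in these lists rest on few genes. Of the 10 Rubisco assembly genes, BSD2, for a chaperone of Rubisco assembly, fell from 280, 264 and 227 CPM to 166, 162 and 181 CPM (log2 fold change −0.60, adjusted p = 0.0324, edgeR, and −0.29 with adjusted p = 0.103 after removal of the length trend). The other 9 did not pass. Of the 17 other photorespiration genes and transporters tested, GDCH2, GDCH3 and PLGG1 fell. PLGG1, for the plastid glycolate and glycerate transporter, fell from 620, 681 and 648 CPM to 510, 479 and 482 CPM (log2 fold change −0.41, adjusted p = 0.0463, edgeR, and −0.44 with adjusted p = 0.0403 after removal of the length trend). Among 7 other carbonic anhydrases and catalases, BCA5, for a carbonic anhydrase, fell from 99.7, 95.8 and 103 CPM to 75.0, 63.5 and 70.3 CPM (log2 fold change −0.52, adjusted p = 0.0391, edgeR, and 0.0581 after removal of the length trend).

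None of the 7 other Calvin cycle genes and transporters passed with edgeR and TMM scaling alone. Before adjustment 2 were higher, beside 16.5% of all tested genes. DESeq2 called 2 higher, beside 9.00% of the genes it tested, and limma-voom called 0. FBA3, for a less abundant plastid aldolase, had the smallest p, with 74.6, 98.5 and 94.1 CPM in the wild type and 154.5, 155.0 and 110.3 CPM in the mutant (log2 fold change 0.65, adjusted p = 0.0639, edgeR). It lies on chromosome 2 (94727 to 96863), in the segment at the start of that chromosome that was left out in an alternative fit. Its adjusted p was 0.0823 with the length trend removed, and with GC content also removed 0.0270. CP12-3, a further CP12 gene chosen after its values were seen, had 2.33, 2.97 and 1.64 CPM against 3.33, 5.01 and 5.71 CPM. Its log2 fold change was 1.03 (adjusted p = 0.0789, edgeR), and it passed with the length trend removed (1.38, adjusted p = 0.0397). None of the 12 cytosolic counterparts, such as the cytosolic glyceraldehyde phosphate dehydrogenases and glutamine synthetases, passed with edgeR. Before adjustment 2 were lower, beside 13.3% of all tested genes, and DESeq2 and limma-voom called 0. The smallest p was that of GAPC2 (log2 fold change −0.30, adjusted p = 0.143, edgeR).

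None of the 7 light and greening regulators passed with edgeR. Before adjustment 2 were higher and 2 lower, beside 16.5% and 13.3% of all tested genes. DESeq2 called 1 in each direction, beside 9.00% higher and 5.51% lower of the genes it tested, and limma-voom called 0. HY5, a light signalling factor, had the smallest p, with 111, 122 and 102 CPM in the wild type and 84.6, 47.7 and 77.7 CPM in the mutant (log2 fold change −0.67, adjusted p = 0.0898, edgeR). The other 6 were chosen after their values were seen. CGA1 and GNC are GATA factors that promote greening. CGA1 had 115, 90.0 and 78.7 CPM against 48.0, 9.45 and 38.7 CPM, and GNC had 344, 305 and 274 CPM against 234, 61.7 and 189 CPM. Both were lower in every hb34 library and lowest in hb34 replicate 2, and neither passed (adjusted p = 0.0920 and 0.179, edgeR). The remaining 4 genes had positive log2 fold changes. GLK1 and GLK2, factors that activate photosynthesis genes, were at 0.35 and 0.16 (adjusted p = 0.161 and 0.480, edgeR). PIF4, a phytochrome-interacting transcription factor, had 14.6, 14.1 and 16.7 CPM against 19.3, 73.4 and 18.8 CPM, with hb34 replicate 2 far above the rest (log2 fold change 1.296, adjusted p = 0.147, edgeR). PIF3, of the same family, was at 0.26 (adjusted p = 0.559, edgeR). Of the 8 clock genes tested, PRR7, a repressor of the morning clock genes CCA1 and LHY, rose from 30.1, 30.5 and 37.6 CPM to 59.9, 57.8 and 66.4 CPM (log2 fold change 0.91, adjusted p = 0.0169, edgeR, and 0.0504 after removal of the length trend). CCA1 and LHY did not pass (log2 fold changes 0.30 and 0.02, and 0.10 and −0.33 after that removal). They and the next genes were chosen after their values were seen. PRR9 had 163.2, 179.8 and 175.6 CPM in the wild type and 207.3, 62.55 and 195.8 CPM in hb34. TOC1 had 4.877, 4.803 and 6.949 CPM against 4.562, 14.99 and 4.73 CPM. In both, hb34 replicate 2 stood far from its fellows, but not in PRR7. Whether the libraries differ in clock state was not tested. Of 4 sugar starvation genes tested, ASN1, for a sugar-repressed asparagine synthetase, had 8.80, 4.69 and 16.9 CPM in the wild type and 1.61, 1.90 and 1.29 CPM in hb34 and fell (log2 fold change −2.67, adjusted p = 0.0301, edgeR, and 0.0243 after removal of the length trend). It passed in 15 of 21 alternative settings. Those it missed included limma-voom (adjusted p = 0.0593) and the fits without wild-type replicates 1 or 2 or hb34 replicates 1 or 3.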

How the data were processed

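Total RNA was sequenced with paired-end Illumina reads in 6 libraries, 3 of each genotype, grouped by their titles. The authors deposited raw counts per gene, which were used as deposited; a count covers the exons of a gene, per the file headers. The submitters' processing notes name the build TAIR10 with HISAT2 2.1.0 and DESeq2 1.30.1. The sources used here name no counting program and say nothing of strand or of reads that match several genes. Of the 35 members, 12 overlap another annotated gene (9 antisense, 3 on the same strand), and no overlapping gene had more than 1644 counts in a library.

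In edgeR 4.0.16 (R 4.3.3), filterByExpr with a minimum count of 10 and a minimum total of 15 left 17905 genes. After TMM scaling these were fitted with genotype as the only term (glmQLFit) and tested two-sided (glmQLFTest). P-values were adjusted over them by Benjamini and Hochberg's method, with 0.05 as the threshold. DESeq2 1.42.0 and limma 3.58.1 (voom) were alternatives, beside other scalings, filters, dispersions, gene sets and left-out libraries. The length trend of a library was a lowess curve (span 0.3) of its log2 CPM minus the gene's mean on log2 exon length, removed by an offset; the version with GC content removed a second such curve. Shares within families were tested by exact permutation. Coordinates and sequences are from RefSeq's TAIR10.1, in which all 35 members were matched by locus.

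The members and lists were chosen with earlier results of these data known. Values in every library were given for members past the threshold, the 2 with the smallest p in each role group and the families; from the other lists, for genes past the threshold (up to 3 a list) or the one with the smallest p. Other genes with values in every library (GAPB, HPR1, GLYK, GDCH, SHM1 and those said to be so beside their values) were chosen after these were seen.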

Additional observations from a re-analysis of the deposited data

How the results depend on the processing

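Of 21 alternatives, 19 were planned and 2 (length trend, length and GC trends) were chosen after seeing the data. Members higher (1 in the report) became 2 with DESeq2 and 0 with the length trend removed. Members lower (3) became 1 with library size only and 1 without the chromosome 2 segment (the start of chromosome 2, up to AT2G05540). GAPA2 was the gene left in both. Leaving out 1 library at a time gave 0 to 1 members higher, 0 to 2 lower, 1 to 853 genes higher and 2 to 503 lower in the whole table, and a members' median from −0.107 to −0.033. Genes higher and lower in the whole table were 1652 and 1012 with DESeq2, 327 and 224 with the length trend removed and 354 and 237 with GC also removed; 381 were higher without the chromosome 2 segment. The members' median was −0.173 with upper quartile scaling, 0.0079 with the length trend removed and −0.0277 with GC also removed. Same-numbered replicates deviated with correlations of −0.097, −0.115 and −0.263. These were taken with the length trends left in, which ran in opposite directions in replicates 1 and 2 of the genotypes. They therefore cannot show whether the numbers pair the libraries. A fit with the replicate number as a block called 0 members higher, 0 lower, and 2 genes higher and 3 lower in all.

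The sign of a member's log2 fold change turned 18 times in 730 member values, in 11 members, none of which passed the test. With the length trend removed it became 0.096 (RBCS1A), 0.051 (RBCS2B), 0.063 (CP12-2), 0.0079 (GDCH) and −0.0118 (GLU1). With GC also removed it became 0.051 (RBCS1A), 0.017 (RBCS2B), −0.046 (FBA1), 0.060 (GDCH) and −0.048 (GLU1). Upper quartile scaling gave −0.017 (FBA1), −0.025 (HCEF1) and −0.016 (GOX2). Leave-one-out gave −0.045 (FBA1), −0.049 (FBA2) and 0.034 (GLN2) without wild-type replicate 1, 0.011 (GAPB) without wild-type replicate 2 and −0.018 (FBA2) without hb34 replicate 2; the ranges were −0.045 to 0.250 (FBA1), −0.049 to 0.285 (FBA2), −0.062 to 0.034 (GLN2) and −0.111 to 0.011 (GAPB). The difference in share, in percentage points, turned for FBA1 (0.610 and 2.75 without wild-type replicate 1 or hb34 replicate 2, lowest −4.05), CP12-1 (0.333 without wild-type replicate 1, lowest −1.60) and CA1 (2.04, 0.027 and 1.79 without wild-type replicates 2 or 3 or hb34 replicate 3, lowest −3.45). The cause was not tested, beyond the trends these fits remove by construction. A member had at least 4371 counts in every library.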
